A study of Mus musculus with 6 samples.

Results

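Membrane carriers of sugars, amino acids, peptides, monocarboxylates, organic ions and bile salts were followed in liver tissue outside the tumours of mice on a control diet and on a diet with moderately restricted carbohydrate. The genes were chosen by name: every gene on the array whose symbol begins with Slc1a, Slc2a, Slc3a, Slc5a, Slc6a, Slc7a, Slc15a, Slc16a, Slc22a, Slc36a, Slc38a, Slc43a or Slco was taken, without regard to its values. This gave 140 genes, read by 172 of 39429 probes. One of them, Slc7a6os, is a neighbour of a carrier gene and not itself a carrier; it forms a class of its own and is included in counts over all 140 or all 88 tested genes.

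Liver cells take up glucose, fructose, amino acids, carnitine, hormones and bile salts from blood through such carriers, and they send some of the same compounds out again. Glucose passes by facilitated diffusion through Slc2 proteins, amino acids enter largely with sodium or in exchange for one another, and bulky organic anions enter through the Slco and Slc22 families. Several carriers need a second protein to reach the membrane, such as the heavy chains Slc3a1 and Slc3a2 for the Slc7 light chains and basigin, encoded by Bsg, for the Slc16 lactate carriers.

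The study compared 3 mice per diet, all male, of the inbred strain C57BL/6 and 5 weeks old at the start. Every mouse in both groups had received, by injection of a large volume into the tail vein that drives DNA into liver cells, a transposon vector carrying human HrasG12V (an activated RAS oncogene), shp53 (a short hairpin RNA against p53) and GFP4 (a green fluorescent reporter), so the controls also carried the liver cancer model. The sample labels name the second diet a moderate restricted carbohydrate diet, with 1 preliminary week and 5 weeks of supplementation, while the series text adds phytochemicals that mimic calorie restriction and gives 2 and 4 weeks. Total RNA of each liver piece was hybridised to 1 single-colour Agilent array, and nothing in the labels says how tumour-free the excised tissue was beyond its name.

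Signals are given as log2 relative to the 75th percentile of the array, which ranged from 287 to 574 intensity units. A log2 difference is the mean of the 3 restricted mice minus the mean of the 3 control mice, and a gene was called at an adjusted p under 0.05 from limma with Benjamini-Hochberg adjustment over 19616 features. The difference of the median feature was 0.12, so a carrier near that value moved with the bulk of the array. Levels were not compared between genes, since each probe has its own brightness. Arrays correlated at 0.976 to 0.988 within a diet and at 0.925 to 0.947 between diets, and over the carriers alone at 0.942 to 0.989 and 0.837 to 0.876. Slide 1 held the 3 control mice and restricted mouse 1, and slide 2 held restricted mice 2 and 3, so a fit with a slide block rests on restricted mouse 1 against the controls and gives nearly the same differences as slide 1 alone.

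Of the 140 genes, 88 passed the scanner's test of being well above background on every measured array of the control diet, the restricted diet or both, and were tested. The other 52 were not tested, 40 of them not well above background on any array and 12 above it on some. Among the 88 tested genes 19 were higher on the restricted diet (18 carriers and Slc7a6os), 21 were lower and 48 were not called. Those shares are 21.6% and 23.9%, together 45.5%, against 14.6% of all features called higher and 12.8% called lower, together 27.5%. Among features with a RefSeq symbol the shares were 15.2% and 14.4%. By class, the higher and lower shares were 20% and 26.7% for sugars and inositol and 16.7% and 19.4% for amino acids. They were 14.3% and 35.7% for monocarboxylates, hormones and vitamins, 36.4% and 18.2% for Slc22, and 37.5% and 25% for Slco. These class shares rest on few genes and were not tested. The median log2 difference of the tested genes, 0.16, lay close to the 0.12 of all features, while their median absolute difference was 0.71 against 0.45. In 34.1% of the 88 genes every restricted mouse lay above every control mouse and in 23.9% below, against 26.1% and 18.8%, together 44.8%, of all features. The differences ran from -4.27 for Slc2a6 to 3.30 for Slc2a5. With the slide as a block, 7 of the 19 higher calls and 18 of the 21 lower calls were kept, at a background of 5.71% higher and 9.65% lower.

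**Figure D1:**
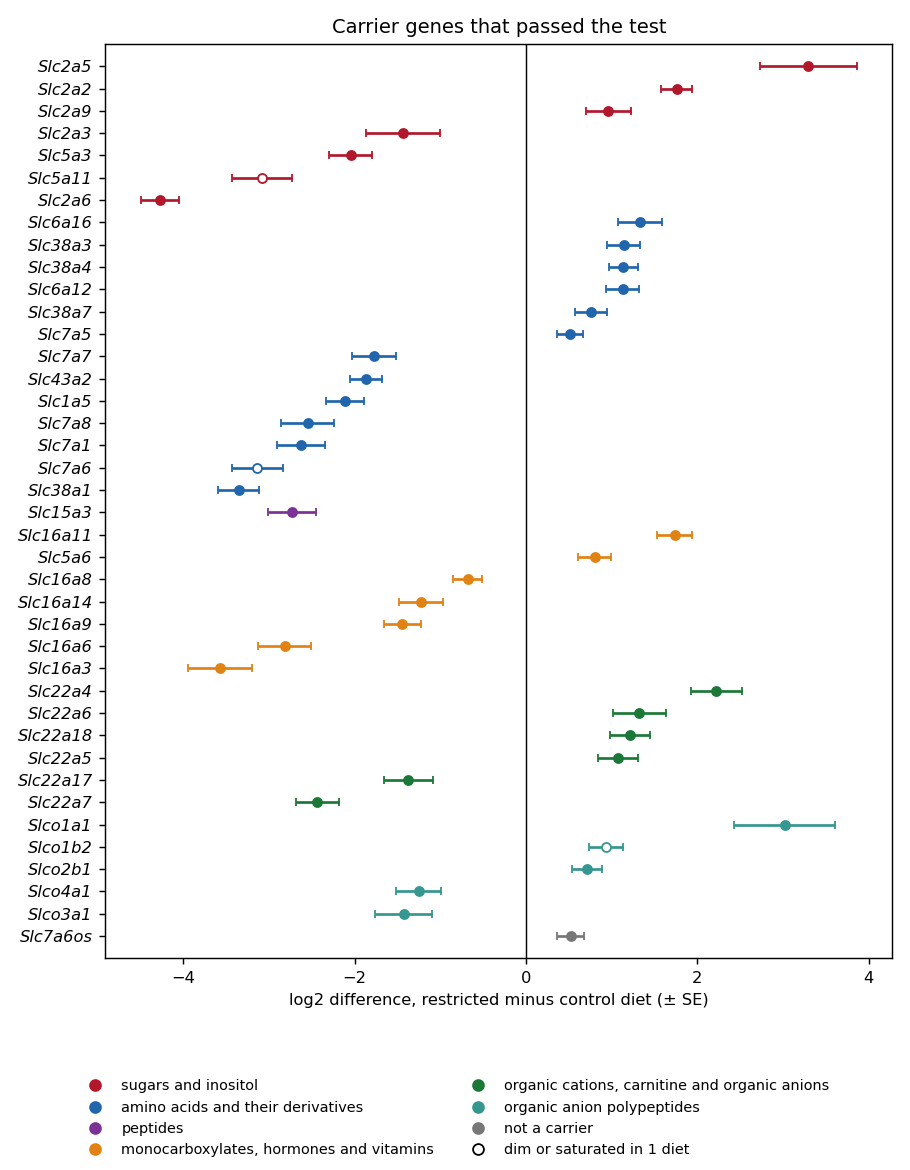
Log2 difference between the restricted and the control diet for the 40 genes called, each with its standard error from limma, ordered by substrate class; open points mark a probe that was dim in every mouse of a diet or saturated in every mouse of a diet. Sugar carriers span the whole range, from -4.27 for Slc2a6 to 3.30 for Slc2a5. Each carrier class except the peptide carriers holds genes on both sides of 0, and Slc7a6os, which is not a carrier, lies above 0.

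The liver pieces are mixed tissue, and in such bulk samples fewer cells of a type and less RNA per cell cannot be told apart. Of the 6 hepatocyte markers, Alb, Serpina1a and Ttr were saturated on all 6 arrays, so neither their differences nor the sum of the list says whether hepatocyte content differed. The other 3 were not called by limma, with differences of -0.61 for Apoa1, 1.07 for Cps1 and 0.55 for Hnf4a. Of 12 macrophage and Kupffer cell markers 11 were lower, and their summed signal fell from 241 to 317 in control mice to 60.9 to 87.8 in restricted mice. Markers of dividing cells were lower for 5 of 5 (3.91 to 5.97 against 0.587 to 1.02), of stellate cells for 5 of 8 (36.1 to 42.2 against 4.78 to 15.4), and of neutrophils for 5 of 8 with 1 higher (30.4 to 106 against 4.87 to 27.2). Liver endothelial markers were higher for 4 of 6 (10.1 to 12.6 against 19.2 to 23.8), periportal hepatocyte markers for 3 of 6 (163 to 217 against 476 to 564) and pericentral ones for 3 of 7, with sums that overlapped (226 to 325 against 320 to 406). The pericentral sum holds Cyp2e1, saturated on all 6 arrays, so its overlap does not say whether pericentral content differed. In the periportal sum Cyp2f2 and Pck1 were each saturated in 2 restricted mice. Bile duct markers were lower for 2 of 5 (0.980 to 1.41 against 0.416 to 0.726). The intestine list had 1 tested gene, Fabp2, which was higher by 1.44 (adjusted p = 0.00843; list sum 7.05 to 11.3 against 18.4 to 28.6), and the pancreas list 1, Ctrb1, higher by 1.09 (adjusted p = 0.00573; 0.268 to 0.370 against 0.619 to 0.675), while Alpi, Sis, Cpa1 and Prss1 were below background in every mouse. Of the kidney markers 3 of 4 were below background in every mouse, and the summed signal of the list was 0.0637 to 0.0844 in control and 0.0811 to 0.0937 in restricted mice. The part of any cell type in the carrier differences was not tested.

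Among sugar and inositol carriers, 3 were higher, 4 were lower and 8 were not called of 15 tested (20 on the array), with a median difference of 0.19. The carriers of glucose and fructose that are typical of hepatocytes and gut, Slc2a2 and Slc2a5, and the urate carrier Slc2a9 were higher. Lower were Slc2a6, a hexose carrier of internal membranes, the high-affinity glucose carrier Slc2a3 and both sodium-coupled inositol carriers, Slc5a3 and Slc5a11.

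The promoters of the most changed facilitated carriers are printed because these genes of a single family moved in opposite directions. Each is the 250 bases before the start of the gene, 5′ to 3′ on the gene's strand, from RefSeq on GRCm38.p6, with capitals marking matches on either strand to the nuclear receptor hexamer AGGTCA, the TATA box TATAAA, the GC box GGGCGG or the E-box CACGTG.
Slc2a2 (chr3:28697653-28697902, plus strand): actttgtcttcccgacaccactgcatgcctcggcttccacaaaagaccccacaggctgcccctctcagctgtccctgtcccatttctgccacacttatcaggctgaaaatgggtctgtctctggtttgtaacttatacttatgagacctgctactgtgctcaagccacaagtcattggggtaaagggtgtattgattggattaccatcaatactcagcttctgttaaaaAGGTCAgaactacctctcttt
Slc2a5 (chr4:150119094-150119343, plus strand): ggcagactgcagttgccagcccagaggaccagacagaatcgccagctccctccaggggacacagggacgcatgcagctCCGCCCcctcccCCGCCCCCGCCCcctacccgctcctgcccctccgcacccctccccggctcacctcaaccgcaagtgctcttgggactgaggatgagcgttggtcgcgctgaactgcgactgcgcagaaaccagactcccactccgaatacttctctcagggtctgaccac
Slc2a6 (chr2:27027999-27028248, minus strand): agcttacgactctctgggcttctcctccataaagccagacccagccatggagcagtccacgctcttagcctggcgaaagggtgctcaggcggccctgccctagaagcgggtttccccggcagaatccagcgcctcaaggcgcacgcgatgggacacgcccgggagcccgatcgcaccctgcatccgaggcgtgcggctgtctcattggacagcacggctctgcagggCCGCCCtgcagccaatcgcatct
The window of Slc2a2, with a GC content of 47.2%, holds 1 hexamer that begins 21 bases before the start. That of Slc2a5 holds 3 GC boxes, at 172, 160 and 154 bases, in a GC content of 66.4%, and that of Slc2a6 holds 1 GC box at 23 bases in 65.2%. Over all 32851 RefSeq promoter windows of this length the hexamer occurred in 14.02%, the TATA box in 12.4%, the GC box in 32.7% and the E-box in 6.02%, at a median GC content of 52.4%. A match describes letters only and is no measured binding site.

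Slc2a2 encodes GLUT2, the main glucose carrier of hepatocytes, and its probe lies at chr3:28627016-28627075 on mm9, the build of all probe positions here. Its log2 signal was 2.14, 2.16 and 1.87 in control mice 1 to 3 and 3.79, 4.00 and 3.66 in restricted mice 1 to 3. Every restricted mouse lay above every control mouse, and the difference of 1.76 (SE 0.18, adjusted p = 0.000883) is a 3.38-fold higher signal. Restricted mouse 1, the only one on the slide of the controls, lay between the other restricted mice.

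Slc2a5 encodes GLUT5, the fructose carrier, known mainly from the gut, probed at chr4:149517775-149517834. Its signal was -3.89, -3.30 and -2.17 in the control mice and -0.84, 0.50 and 0.87 in the restricted mice. The groups did not overlap, though both were wide, with SDs of 0.87 and 0.90 (n = 3), and the difference was 3.30 (SE 0.56, adjusted p = 0.00618), a 9.82-fold higher signal. Restricted mouse 1 was the lowest of its group, and with a slide block the difference was 2.28 and no longer called (adjusted p = 0.0598). The intestine marker Fabp2 was higher in the same mice, as given above, and its part was not tested. Slc2a9, a carrier of urate, read 0.38, 0.16 and 0.92 against 1.21, 1.32 and 1.81, higher by 0.96 (SE 0.27, adjusted p = 0.0354). Its call was lost with a slide block (0.72, adjusted p = 0.269), without control mouse 1 (0.91, adjusted p = 0.107) or 2 (0.80, adjusted p = 0.117) and without restricted mouse 2 (1.02, adjusted p = 0.0800) or 3 (0.78, adjusted p = 0.0987).

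Slc2a6 had the largest difference among the carriers tested. Its brighter probe, at chr2:26876891-26876950, read 0.21, 0.49 and 0.52 in control mice and -3.49, -4.15 and -3.95 in restricted mice. These groups lay far apart, and the log2 signal fell by 4.27 (SE 0.22, adjusted p = 0.000247), a 19.3-fold difference. A second, dimmer probe at chr2:26878631-26878690, well above background on 4 of 6 arrays, read -4.38, -4.21 and -4.24 against -4.95, -4.91 and -3.70 and was not called (-0.24, adjusted p = 0.640).

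Both inositol carriers were lower. Slc5a3 (chr16:92079366-92079425) read -1.10, -1.12 and -0.42 in control mice and -3.18, -2.88 and -2.70 in restricted mice, lower in every restricted mouse with a difference of -2.04 (SE 0.25, adjusted p = 0.00165). Its second probe gave -1.85. Slc5a11 (chr7:130416704-130416763) read -2.10, -2.06 and -2.02 in control mice, a spread of 0.04 (SD, n = 3), and -5.95, -4.98 and -4.49 in restricted mice, none of them well above background. The restricted values are therefore bounds: Slc5a11 was at least 6.79-fold lower (adjusted p = 0.00132), reckoned from the control mean to the mean of the restricted arrays, with each raised, where lower, to the dimmest signal well above background on that array.

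Slc2a3, probed at chr6:122678075-122678134, read -2.53, -2.40 and -3.31 against -3.28, -4.63 and -4.64, above background on 4 of 6 arrays. Control mouse 3 lay just below restricted mouse 1, so the groups overlapped, and the difference of -1.44 (SE 0.43, adjusted p = 0.0463) lost its call with a slide block (-0.53, adjusted p = 0.443), under normexp, a background correction run with an offset of 50 (-0.42, adjusted p = 0.130), under median scaling (-1.34, adjusted p = 0.0699), under quantile normalization (-1.34, adjusted p = 0.0859) and without control mouse 1 (-1.33) or 2 (-1.26) or restricted mouse 2 (-1.21) or 3 (-1.21). Of the other glucose carriers, Slc2a1, which supplies basal glucose in most tissues, differed by -0.89 (SE 0.41, adjusted p = 0.151) and was called only without control mouse 3 (-1.29, adjusted p = 0.0318) or with array weights (-1.34, adjusted p = 0.0107). The intracellular sugar carrier Slc2a8 differed by 0.29 (SE 0.15, adjusted p = 0.204), although its 3 restricted mice lay above the controls. The remaining 6 tested carriers of this class were not called, with differences of 0.07 to 1.62. The widest of them, chosen after its values were seen, was Slc2a4, the insulin-responsive carrier of fat and muscle, with -3.75, -4.11 and -4.83 in control mice and -0.53, -3.02 and -4.27 in restricted mice. Restricted mouse 1 stood apart there, and the summed adipocyte markers were 1.45 in that mouse and 0.122 to 0.398 in the other 5, a concurrence whose part was not tested.

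**Figure D2:**
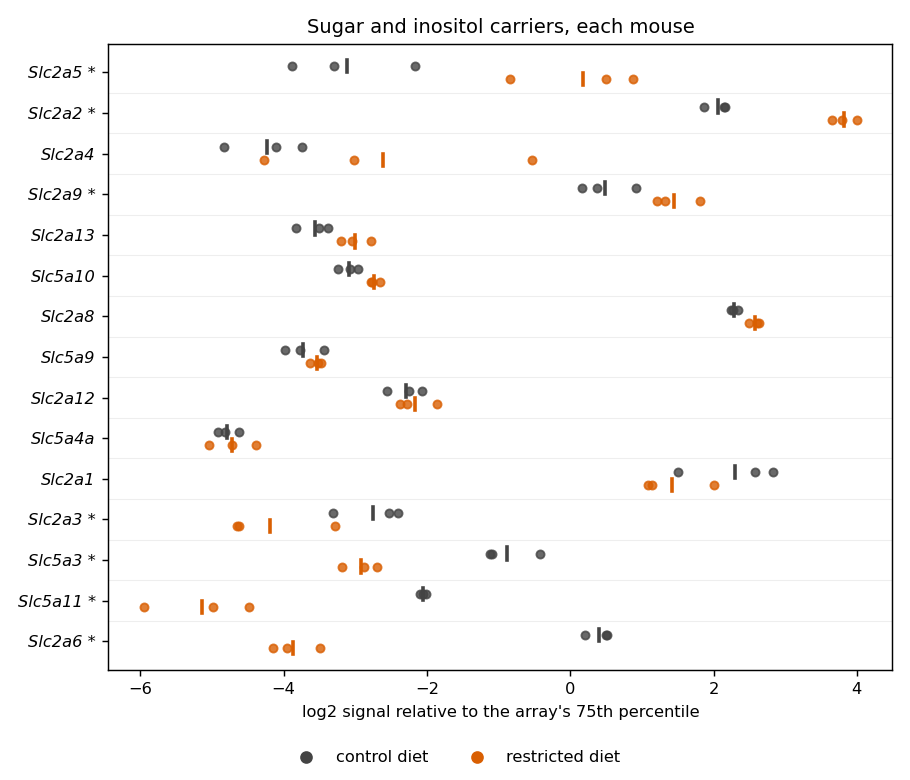
Log2 signal relative to the 75th percentile of the array for the 15 sugar and inositol carriers tested, 1 point per mouse and a bar at the mean of each diet; an asterisk marks the 7 genes called. Restricted mice lie above all control mice for Slc2a5, Slc2a2 and Slc2a9 and below them for Slc5a3, Slc5a11 and Slc2a6, while Slc2a3 overlaps.

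The first enzymes to act on these sugars were read from the same fit as a list that had been chosen with these data known. Across 22 tested enzymes of sugar, amino acid, lactate and carnitine handling 8 were higher and 5 lower, where 14.6% and 12.8% of all features were. Khk, the ketohexokinase that phosphorylates fructose, was higher by 1.05 (SE 0.22, adjusted p = 0.0136). The hexokinases of tissues other than hepatocytes were lower, with differences of -2.03 for Hk1, -2.77 for Hk2 and -1.57 for Hk3 (adjusted p = 0.000552, 0.000353 and 0.00584).

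Among carriers of amino acids and their derivatives 6 were higher, counting Slc7a5, whose probes disagree, 7 were lower and 23 were not called of 36 tested, and 25 of the 61 on the array were not tested. The shares called higher and lower, 16.7% and 19.4%, compare with 14.6% and 12.8% of all features. The median difference was 0.02, below the 0.12 of all features. Sodium-coupled glutamine and alanine carriers of the Slc38 family and the betaine carrier Slc6a12 were higher. The lower genes were Slc38a1, the glutamine carrier Slc1a5, the arginine carrier Slc7a1 and carriers of large neutral and cationic amino acids, Slc7a6, Slc7a7, Slc7a8 and Slc43a2. By family, the called genes were 3 higher and 1 lower of 9 tested in Slc38 and 2 higher of 8 in Slc6. Slc1 had 1 lower of 5. In Slc7 they were 2 higher and 4 lower of 8, a count by name that includes Slc7a6os, which was higher but is not a carrier. The other higher call in Slc7 was Slc7a5.

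Slc38a3, a glutamine carrier of the hepatocyte membrane, read 5.06, 4.66 and 5.02 in control mice and 6.22, 6.09 and 5.84 in restricted mice. Slc38a4, which carries neutral amino acids and is abundant in liver, read 4.07, 3.76 and 3.86 against 5.12, 4.95 and 5.03. Both sets lay apart, each with a difference of 1.14 or 2.20-fold (SE 0.20 and 0.17, adjusted p = 0.00625 and 0.00342). Both kept their calls with a slide block, but on slide 1 alone their adjusted p were 0.0586 and 0.0596. Slc38a7, a glutamine carrier of lysosomes, rose from -1.40 ± 0.23 to -0.65 ± 0.12 (SD, n = 3 each), which is 0.76 higher (SE 0.19, adjusted p = 0.0238). Its call was lost with a slide block (0.78, adjusted p = 0.129) and without control mouse 1 (0.73) or 2 (0.66) or restricted mouse 1 (0.75) or 2 (0.70).

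Slc38a1, an uptake carrier for glutamine in many tissues, went the other way. Its probe at chr15:96406793-96406852 read 1.44, 1.65 and 1.55 in control mice and -2.27, -1.64 and -1.52 in restricted mice. The groups differed by -3.35 (SE 0.24, adjusted p = 0.000335), a 10.2-fold lower signal, and the gene's other probes gave -2.97 and -2.31. Slc38a1, Slc38a2 and Slc38a4 have probes within a short stretch of chromosome 15, and their differences were -3.35, -0.37 and 1.14. Slc38a2, which rises when cells lack amino acids, was not called (SE 0.38, adjusted p = 0.506), with restricted mouse 2 at 2.22 below the controls and the others, at 3.60 and 3.34, within the control range.

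Slc6a12 carries betaine and GABA. It read 2.80, 2.49 and 2.94 in control mice and 4.04, 3.72 and 3.86 in restricted mice, higher throughout with a difference of 1.13 (SE 0.19, adjusted p = 0.00618), and on slide 1 alone it gave 1.30 at an adjusted p of 0.0610. Its neighbour on chromosome 6, Slc6a13, a taurine and GABA carrier of liver, was higher in all restricted mice by 0.57 but missed the threshold (SE 0.20, adjusted p = 0.0721). Slc6a13 was called under median scaling (0.66, adjusted p = 0.0313), with trend and robust moderation (adjusted p = 0.0428) and with array weights (0.71, adjusted p = 0.0123). Slc6a16, an orphan member of the family, read -2.92, -2.57 and -2.60 against -1.77, -1.41 and -0.92. The restricted mice all lay above the controls, with a difference of 1.33 (SE 0.25, adjusted p = 0.00920) that was not called with a slide block (0.93, adjusted p = 0.101).

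Taurine, creatine and glycine carriers of the same family showed no called difference. For the taurine carrier Slc6a6 the difference was 0.00 (SE 0.32, adjusted p = 0.995), for the creatine carrier Slc6a8 it was -0.70 (SE 0.30, adjusted p = 0.127) and for the glycine carrier Slc6a9 it was 0.45 (SE 0.25, adjusted p = 0.227). In the pathway of creatine, Gatm was lower (-1.89, adjusted p = 0.0140) and Gamt, which finishes its synthesis, was higher (1.11, adjusted p = 0.0128). The spread of the restricted mice for Slc6a6, 0.56 (SD, n = 3), was wider than that of the controls, 0.34.

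The arginine carrier Slc7a1 (chr5:149139957-149140016) read 0.31, 0.51 and -0.46 in control mice and -2.56, -2.68 and -2.27 in restricted mice. All restricted values lay below the controls, a difference of -2.62 (SE 0.28, adjusted p = 0.00103). Slc7a2, the cationic amino acid carrier of hepatocytes, read 1.09, 0.67 and 0.50 against 2.49, 1.24 and 1.07. Control mouse 1 and restricted mouse 3 overlapped and restricted mouse 1 stood high, so that the difference of 0.85 (SE 0.39, adjusted p = 0.155) was not called with all 6 mice but was called with a slide block (1.74, adjusted p = 0.0155).

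The Slc7 light chains that pair with Slc3a2 were mostly lower. Slc7a8 read -1.02, -0.22 and -0.31 in control mice and -3.58, -2.78 and -2.83 in restricted mice, apart by -2.55 (SE 0.31, adjusted p = 0.00163). Slc7a6 read -3.26, -4.37 and -4.04 in control mice and -7.18, -6.94 and -6.96 in restricted mice, where it was not well above background, and it was at least 2.05-fold lower (adjusted p = 0.000675). Under normexp the Slc7a6 difference shrank to -0.25 and was not called (adjusted p = 0.346). Slc7a7, which exports cationic amino acids, was lower by 1.77 on the log2 scale, from 1.33 ± 0.35 to -0.44 ± 0.33 (SD, n = 3 each; SE 0.26, adjusted p = 0.00319).

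Probes for Slc7a5, a carrier of leucine and other large neutral amino acids, went in opposite directions. The brighter on average, at chr8:124430996-124431055, read -3.30, -3.28 and -3.27 against -2.89, -2.68 and -2.74, a difference of 0.51 that is counted among the higher calls (SE 0.16, adjusted p = 0.0489). The other, at chr8:124405136-124405195, read -2.56, -2.56 and -2.54 against -4.31, -3.95 and -3.44, a difference of -1.35 (adjusted p = 0.00728 with every probe tested). Which probe is brighter depends on the arrays used, and without restricted mouse 1 or 2 the gene read -1.14 or -1.32, while without any control mouse or restricted mouse 3 the higher call was lost (0.50 to 0.52, adjusted p from 0.0674 to 0.131). No direction is given for Slc7a5. The shared heavy chain Slc3a2 differed by 0.04 (SE 0.24, adjusted p = 0.913) and the heavy chain Slc3a1 by -0.90 (SE 0.51, adjusted p = 0.233), with restricted mouse 3 at -0.10 against 1.17 and 1.83 in the other two. Slc7a11, the cystine and glutamate exchanger, was well above background on 1 control array and no restricted array and was not tested.

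Slc1a5, which brings glutamine and other neutral amino acids into proliferating cells, fell from 0.37 ± 0.34 to -1.74 ± 0.13 (SD, n = 3 each), which makes -2.11 (SE 0.22, adjusted p = 0.000902), and its second probe gave -2.07. Slc43a2, a carrier of leucine and phenylalanine, fell from 0.83 ± 0.02 to -1.03 ± 0.26, by 1.87 (SE 0.19, adjusted p = 0.000818). Its relative Slc43a1, the large neutral amino acid carrier of liver, differed by 0.47 (SE 0.24, adjusted p = 0.190). Slc1a2, the glutamate carrier, was higher in all restricted mice by 0.41 but not called (SE 0.16, adjusted p = 0.0990). In the same mice the macrophage marker sum was 241 to 317 in controls and 60.9 to 87.8 under restriction, and the sum for dividing cells was 3.91 to 5.97 and 0.587 to 1.02; their part in the lower amino acid carriers was not tested.

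The liver glutaminase Gls2, which splits glutamine once it is inside the cell, was higher by 2.15 (SE 0.26, adjusted p = 0.00158). The 13 remaining tested amino acid carriers were not called and differed by -0.90 to 0.50.

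The peptide carriers numbered 5, of which 3 were tested. Slc15a3, a carrier of histidine and small peptides in lysosomes, was lower. Its probe spans chr19:10931798-10932148 and read -0.16, 0.72 and -0.26 in control mice and -2.69, -2.54 and -2.66 in restricted mice. The restricted mice lay within 0.08 of each other (SD, n = 3) and far below the controls, a difference of -2.73 (SE 0.28, adjusted p = 0.000866), or 6.63-fold. Slc15a4, with the same substrates and site, differed by 0.33 (SE 0.28, adjusted p = 0.414), and the groups overlapped. Slc15a2, described because restricted mouse 1 stood apart and chosen after its values were seen, read -2.29, -4.37 and -1.34 in control mice and -0.72, -6.98 and -7.11 in restricted mice, above background on 4 of 6 arrays. It was not called (-2.27, SE 1.73, adjusted p = 0.370), but without restricted mouse 1 the class held 2 lower calls. The macrophage markers fell alongside Slc15a3 in the same mice, and their part was not tested.

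**Figure D3:**
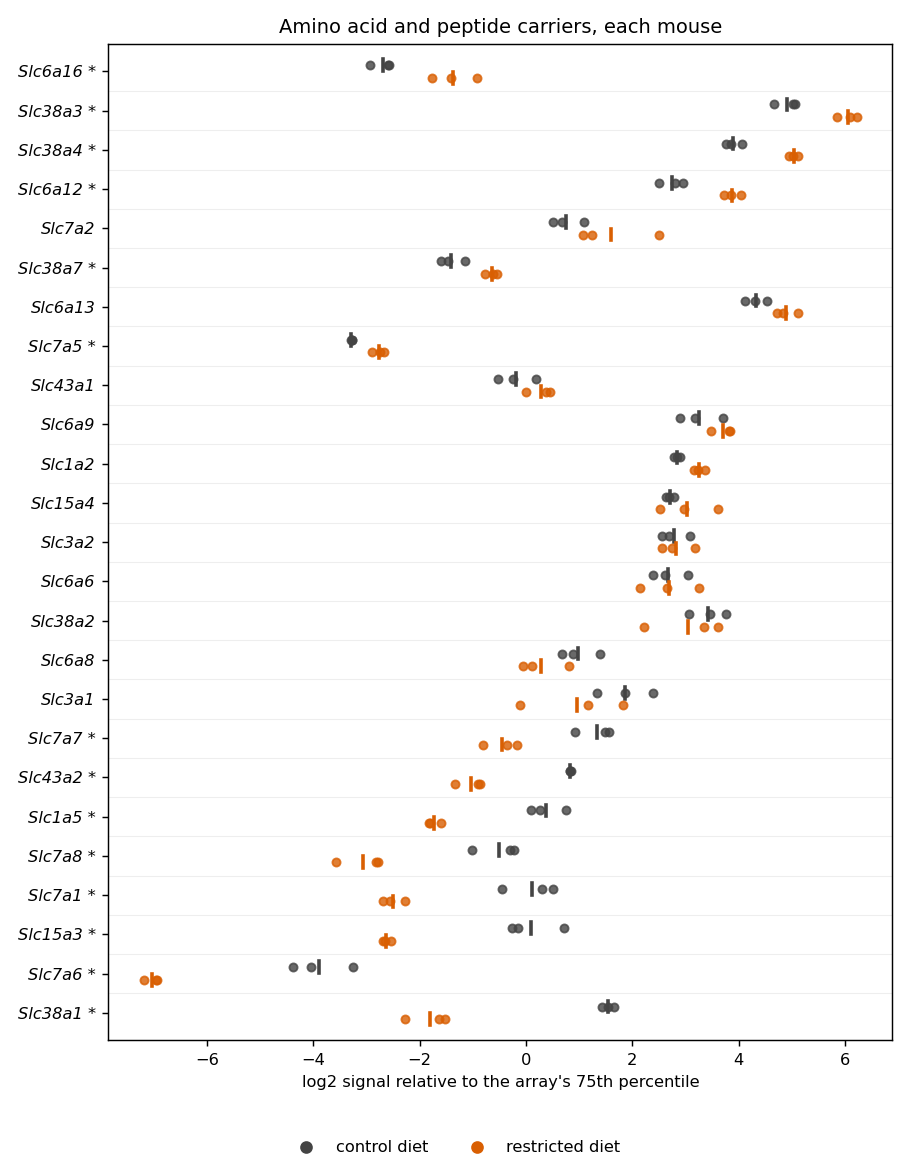
Log2 signal relative to the 75th percentile of the array for the amino acid and peptide carriers that were called or always described and reported here, 1 point per mouse and a bar at the mean of each diet; an asterisk marks a gene called. Slc38a3, Slc38a4 and Slc6a12 sit higher in every restricted mouse, while Slc38a1, Slc7a1, Slc7a8, Slc1a5, Slc43a2 and Slc15a3 sit lower in every restricted mouse.

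In the class of monocarboxylate, hormone and vitamin carriers 2 genes were higher, 5 were lower and 7 were not called of 14 tested (19 on the array), with a median of 0.34. The lower genes were all of the Slc16 family, headed by the lactate exporter Slc16a3 and by Slc16a6, a carrier of ketone bodies. The higher genes were Slc16a11, a pyruvate carrier of hepatocytes, and Slc5a6, the sodium-coupled carrier of biotin and pantothenate. Slc16a1, the general carrier of lactate and pyruvate, was not called.

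Slc16a3 (chr11:120820030-120820089) read 1.73, 1.92 and 1.19 in control mice and -1.17, -2.38 and -2.33 in restricted mice. Every restricted mouse was below the controls, and the difference was -3.57 (SE 0.37, adjusted p = 0.000928), 11.9-fold, with -3.60 from a second probe. Restricted mouse 1 was the least low, and the difference with a slide block was -2.78 (adjusted p = 0.00457). Slc16a6 (chr11:109314056-109314115) read 2.35, 3.12 and 1.97 against -0.26, -0.15 and -0.60, lower in all restricted mice by 2.82 in log2 (SE 0.31, adjusted p = 0.00113), and its second probe gave -3.10.

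Slc16a11 (chr11:70029853-70029912) read 1.88, 2.14 and 2.31 in control mice and 3.55, 4.03 and 3.95 in restricted mice. The groups were separate by more than their SDs of 0.22 and 0.26, with a difference of 1.73 (SE 0.21, adjusted p = 0.00155), 3.32-fold. Slc5a6 read 1.75, 1.65 and 1.28 against 2.18, 2.46 and 2.45, higher by 0.80 (SE 0.20, adjusted p = 0.0231). Its call was lost with a slide block (0.62, adjusted p = 0.205) and without control mouse 2 (0.85, adjusted p = 0.0612) or restricted mouse 2 (0.75, adjusted p = 0.0872) or 3 (0.76, adjusted p = 0.0693).

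Smaller falls were found for 3 other Slc16 genes. Slc16a9, linked to carnitine export, read -0.47, -0.25 and -0.66 against -1.69, -2.24 and -1.79, with no overlap and a difference of -1.45 (SE 0.22, adjusted p = 0.00356). Slc16a14, whose substrate is little known, read -2.98, -3.40 and -3.39 against -4.91, -4.49 and -4.05, lower in all restricted mice by 1.23 in log2 (SE 0.26, adjusted p = 0.0138), and lost its call without control mouse 1 (-1.09, adjusted p = 0.0507). Slc16a8, the lactate carrier of the retinal pigment epithelium, went from -3.36 ± 0.17 to -4.04 ± 0.09 (SD, n = 3 each; -0.68, adjusted p = 0.0252), and lost its call with a slide block (-0.79, adjusted p = 0.0939) and without control mouse 1 (-0.63), restricted mouse 1 (-0.63), 2 (-0.71) or 3 (-0.71). Under normexp the differences of Slc16a14 and Slc16a8 shrank to -0.23 and -0.04.

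Slc16a1 lay higher in all restricted mice, by 0.36 (SE 0.17, adjusted p = 0.163). The creatine carrier Slc16a12 differed by 0.45 (SE 0.19, adjusted p = 0.131). For Slc16a10, a carrier of aromatic amino acids and thyroid hormone, restricted mouse 1 at 2.81 stood above the other restricted mice at 1.43 and 1.12, and the difference was 0.79 (SE 0.44, adjusted p = 0.227). With the slide as a block it was 1.82 and called (adjusted p = 0.0156), while a second probe gave -0.41 (adjusted p = 0.234). The 3 other tested genes of the class differed by 0.32 to 0.60 and were not called. For 1 of them, Slc16a7, a second and dimmer probe gave 0.89 and was called with every probe tested (adjusted p = 0.0377).

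Emb and Bsg encode partner proteins of the Slc16 lactate carriers. Emb was the 1 gene of the partner list called lower (-4.49, SE 0.37, adjusted p = 0.000463), while Bsg differed by 0.03 (SE 0.44, adjusted p = 0.970). Of 8 partner and scaffold genes tested 2 were higher and 1 lower, where 14.6% of all features were called higher and 12.8% lower. Whether the list differs from all features was not tested. The higher genes were Nherf1 by 0.86 (adjusted p = 0.0124) and Pdzk1ip1 by 1.07 (adjusted p = 0.0334), both of which bind carriers at the membrane. Ldhb, the lactate dehydrogenase subunit that favours pyruvate, was higher by 1.16 (SE 0.18, adjusted p = 0.00384), and Ldha differed by 0.08 (adjusted p = 0.799). Stellate, macrophage and dividing cell marker sums fell in the same mice as Slc16a3, as given above, and their part was not tested.

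Carriers of organic cations, carnitine and organic anions (Slc22) had 4 higher, 2 lower and 5 not called of 11 tested, of 19 on the array, and a median difference of 0.38. Higher were Slc22a4 and Slc22a5, neighbours on chromosome 11 that carry ergothioneine and carnitine, the organic anion carrier Slc22a6 and the imprinted gene Slc22a18. Lower were the organic anion carrier Slc22a7 and Slc22a17, a receptor of lipocalin.

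Slc22a4 (chr11:53796841-53796900) read -3.56, -3.17 and -3.67 in control mice and -1.85, -1.03 and -0.85 in restricted mice. All restricted mice were higher, by 2.22 (SE 0.30, adjusted p = 0.00239) or 4.67-fold, and by 1.62 with a slide block (adjusted p = 0.0166), since restricted mouse 1 was the lowest of its group. Slc22a5 (chr11:53678550-53678609) read -1.40, -0.63 and -0.96 against 0.09, 0.22 and -0.07, with no overlap and a difference of 1.08 (SE 0.23, adjusted p = 0.0148). Its difference was of the same size with a slide block (1.09) but not called (adjusted p = 0.0947), nor was it called without restricted mouse 2 (1.01, adjusted p = 0.0585). Downstream of carnitine uptake, Cpt1a (0.95), Cpt2 (1.54), Crat (1.53) and the mitochondrial carnitine carrier Slc25a20 (1.08) were all higher, with adjusted p of 0.0164, 0.00294, 0.00991 and 0.0274, and Crot differed by 0.67 (adjusted p = 0.136).

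Slc22a7 (chr17:46569272-46569331), an anion carrier of liver and kidney, read 2.17, 2.52 and 1.62 in control mice and -0.35, -0.22 and -0.43 in restricted mice. The restricted mice were tightly grouped, with an SD of 0.10 (n = 3), and lay far below the controls (-2.43, SE 0.25, adjusted p = 0.000883), 5.41-fold. Slc22a6, typical of kidney, read -2.46, -2.29 and -2.05 against -1.48, -1.03 and -0.32, higher in all restricted mice by 1.32 (SE 0.31, adjusted p = 0.0198). It was not called with a slide block (0.78, adjusted p = 0.204) or without control mouse 1 (1.23, adjusted p = 0.0689) or 2 (1.31, adjusted p = 0.0647) or restricted mouse 2 (1.37, adjusted p = 0.0548). The kidney markers Kap, Lrp2 and Umod were below background in every mouse.

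Slc22a18 read 4.18, 4.27 and 4.90 in control mice and 5.66, 5.54 and 5.78 in restricted mice, apart by 1.21 (SE 0.23, adjusted p = 0.00940), and by the same 1.21 with a slide block, where it was not called (adjusted p = 0.0708). Slc22a17 read -0.39, -0.19 and 0.31 against -1.96, -1.26 and -1.16, lower in all restricted mice by 1.37 in log2 (SE 0.29, adjusted p = 0.0134). Of the Slc22 genes tested and not called, 4 differed by -0.29 to 0.49.

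The organic anion polypeptides (Slco), which take up bile salts, steroid conjugates, thyroid hormone and many drugs, had 3 higher, 2 lower and 3 not called of 8 tested, with 15 on the array and a median of 0.42. The higher genes were the liver carriers Slco1a1, Slco1b2 and Slco2b1. Slco3a1 and Slco4a1, which are found in many tissues, were lower.

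Promoters of Slco1a1 and Slco1b2, members of a gene cluster on chromosome 6, are printed because both genes were higher in every restricted mouse, with the same length, source and marking as the sugar carrier promoters.
Slco1a1 (chr6:141946963-141947212, minus strand): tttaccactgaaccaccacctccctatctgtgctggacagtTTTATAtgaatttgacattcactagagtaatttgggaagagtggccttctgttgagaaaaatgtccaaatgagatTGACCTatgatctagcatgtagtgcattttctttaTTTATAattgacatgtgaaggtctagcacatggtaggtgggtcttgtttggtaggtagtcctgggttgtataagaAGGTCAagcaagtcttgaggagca
Slco1b2 (chr6:141629268-141629517, plus strand): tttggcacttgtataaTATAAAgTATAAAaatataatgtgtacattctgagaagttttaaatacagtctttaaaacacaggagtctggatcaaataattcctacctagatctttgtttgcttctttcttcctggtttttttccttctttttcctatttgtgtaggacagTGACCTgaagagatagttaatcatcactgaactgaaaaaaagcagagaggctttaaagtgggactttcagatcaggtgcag
Slco1a1 holds hexamers beginning 134 and 24 bases before the start and TATA boxes at 209 and 99 bases, and Slco1b2 holds 1 hexamer at 81 bases and TATA boxes at 234 and 227. Their GC contents, 40.4% and 33.6%, lie below the median of 52.4% over all promoters. Of the 140 genes 105 had a promoter in the RefSeq table, and a gene can have several. The hexamer was in 5 of the 26 promoters of genes called higher (19.2%) and in 3 of the 22 of genes called lower (13.6%), and the GC box in 8 (30.8%) and 12 (54.5%). In the 39 promoters of genes not called the hexamer was in 4 (10.3%) and the GC box in 22 (56.4%), so the share with a GC box was much the same in lower and uncalled genes.

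Slco1a1 (chr6:141856493-141856552), a male-biased carrier of bile salts and steroid sulfates, read -4.63, -3.62 and -3.71 in control mice and -0.50, -2.32 and -0.09 in restricted mice. The groups did not overlap, with restricted mouse 2 lower than its group, and the difference was 3.02 (SE 0.59, adjusted p = 0.0103), 8.10-fold. Without restricted mouse 2 it was 3.69 (adjusted p = 0.00242), and with array weights it was 2.30 (adjusted p = 0.0181). Over 14 alternatives, leaving aside thresholds, blocks, slide 1 alone and other probes, the Slco1a1 difference ran from 1.67 to 3.69, always called. Slco1b2 (chr6:141634476-141634535), the major bilirubin and bile salt carrier of this family in mouse hepatocytes, read 6.45, 6.54 and 6.52 against 7.34, 7.21 and 7.77. The probe was saturated in every restricted mouse, and the gene was at least 1.91-fold higher (adjusted p = 0.0135), a call lost with a slide block (0.84, adjusted p = 0.117). Slco1a4, in the same cluster, overlapped between the diets and differed by 0.52 (SE 0.21, adjusted p = 0.115).

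Slco2b1 read 2.26, 2.59 and 2.37 in control mice and 3.23, 3.17 and 2.96 in restricted mice, higher throughout by 0.71 (SE 0.18, adjusted p = 0.0248), with 0.66 from a second probe. It was not called with a slide block (0.82, adjusted p = 0.0918), under quantile normalization (0.51, adjusted p = 0.0540) or without control mouse 1 (0.64), restricted mouse 1 (0.66) or restricted mouse 2 (0.69). Slco3a1, a prostaglandin carrier, read -0.80, 0.02 and 0.00 against -2.20, -1.65 and -1.21, lower in all restricted mice by 1.43 in log2 (SE 0.33, adjusted p = 0.0195), and lost its call without control mouse 2 (-1.29, adjusted p = 0.0717) or restricted mouse 2 (-1.45, adjusted p = 0.0574). Slco4a1, above background on 5 of 6 arrays, read -2.34, -3.02 and -2.95 against -3.97, -4.37 and -3.74, with no overlap and a difference of -1.25 (SE 0.26, adjusted p = 0.0129) that was not called with a slide block (-1.20, adjusted p = 0.0983) or under normexp (-0.24, adjusted p = 0.397).

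**Figure D4:**
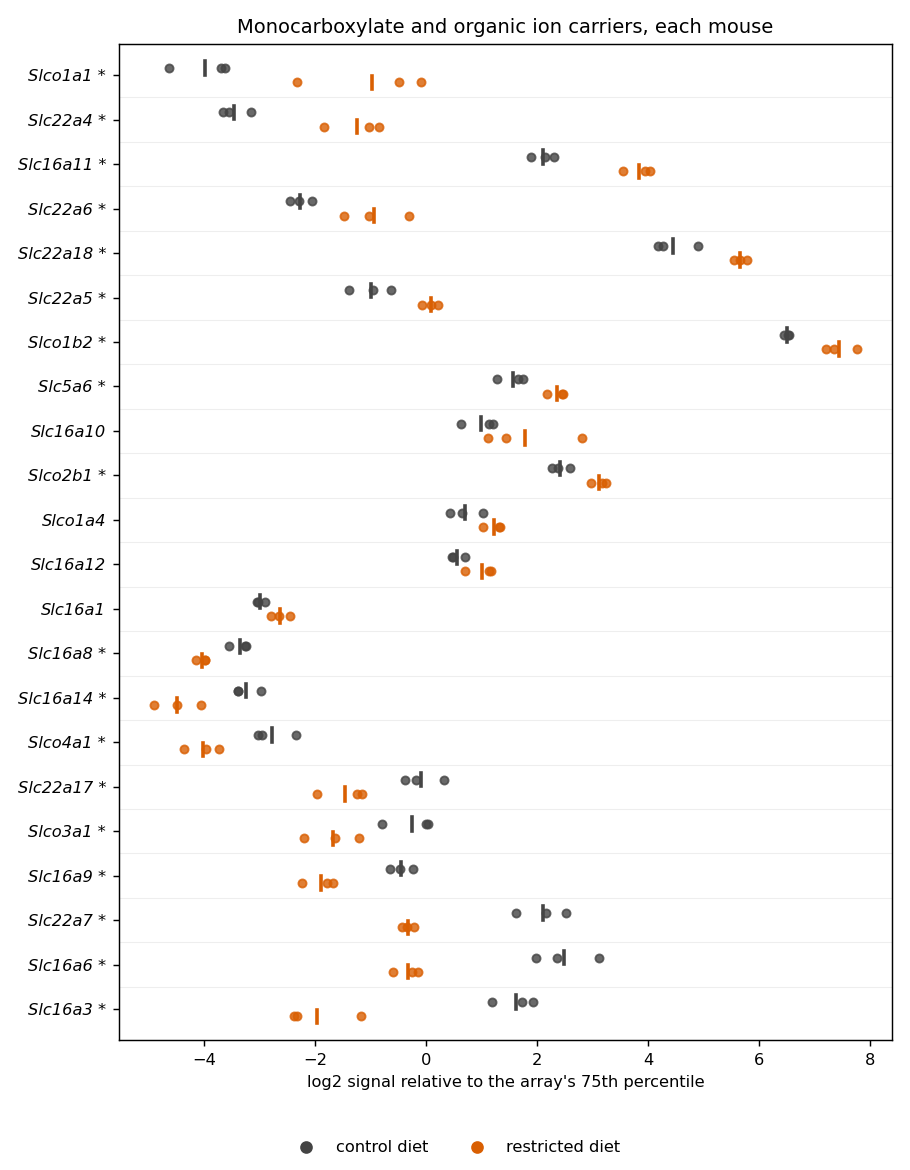
Log2 signal relative to the 75th percentile of the array for the Slc16, Slc5a6, Slc22 and Slco genes that were called or always described and reported here, 1 point per mouse and a bar at the mean of each diet; an asterisk marks a gene called. Slco1a1, Slc22a4 and Slc16a11 are higher in every restricted mouse, and Slc16a3, Slc16a6 and Slc22a7 lower in every one.

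Slc7a6os, which lies beside Slc7a6 on chromosome 8, read -0.27, -0.37 and -0.35 in control mice and 0.08, 0.20 and 0.30 in restricted mice. It was higher in every restricted mouse by 0.52 (SE 0.16, adjusted p = 0.0481), against a bound of at least 2.05-fold lower for its neighbour. The call was lost with a slide block (0.41, adjusted p = 0.311), under normexp (0.46, adjusted p = 0.0544) and without any single mouse (0.47 to 0.58).

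Among 25 listed regulators of carrier genes 5 were called higher and 0 lower by limma, where 14.6% of all features were called higher and 12.8% lower. At an unadjusted p under 0.05 the numbers were 8 and 0, for which no share over all features was taken. Whether the list differs from all features was not tested. Ppara, the fatty acid receptor that drives genes of carnitine uptake, was higher by 1.65 (SE 0.28, adjusted p = 0.00558). Nr1h4, the bile acid receptor, was higher by 1.60 (SE 0.41, adjusted p = 0.0271), Cebpa and Foxa2, factors of hepatocyte identity, by 1.60 (adjusted p = 0.00511) and 1.36 (adjusted p = 0.0330), and Mlxipl, which responds to glucose and acts on sugar genes, by 1.40 (adjusted p = 0.00991). Hnf4a differed by 0.55 (adjusted p = 0.137) and Atf4, which drives amino acid carriers under starvation for amino acids, by -0.23 (adjusted p = 0.473).

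**Figure D5:**
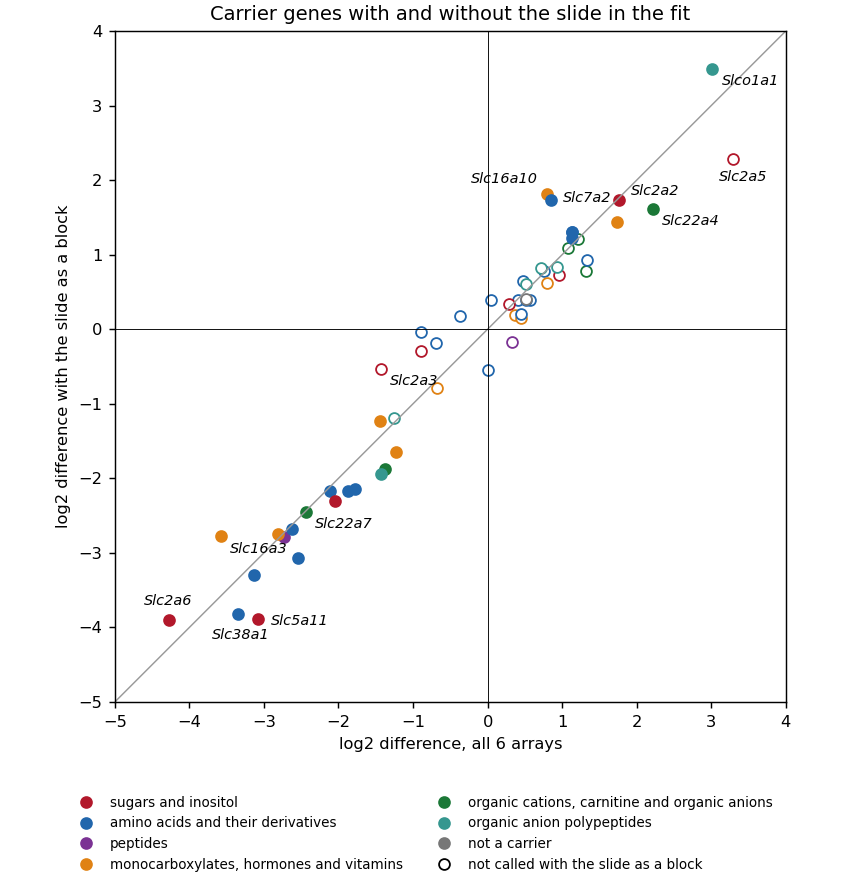
Log2 difference with the slide in the fit as a block (vertical) against that from all 6 arrays (horizontal) for the 57 genes called or always described and reported here; filled points are called with the block and the line marks equal values. Most genes lie near the line, Slc2a5 (3.30 and 2.28), Slc2a3 (-1.44 and -0.53), Slc16a10 (0.79 and 1.82) and Slc7a2 (0.85 and 1.74) lie off it, and the higher side holds more open points than the lower side.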

How the data were processed

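RNA from 6 mouse livers was read on single-colour Agilent arrays (design 026655, probe positions on mm9). The intensity values are the deposited processed signals, background-subtracted and detrended by Agilent Feature Extraction 10.7.3.1 per the file headers; the submitters' processing notes give 9.3.2.1 instead. The authors' deposited value table matched them within 0.1% for 99.8% to 99.9% of probes. Gene names are the files' own; Slc22a9 has the RefSeq symbol Slc22a19. Probes of mm9 and promoters of GRCm38.p6 were not mixed.

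Outlier spots (127 to 251 of 43020 per array) were left out, log2 of the deposited intensity was averaged per probe, less the 75th percentile of that array. Probes had to pass the scanner's background test on every measured array of either diet (24234 of 39429 did), and the brightest probe per gene was taken, 19616 in all. Tests were run with limma 3.58.1 in R 4.3.3, and the fit was checked on simulated data. Among 100 simulated features shifted by 2 log2 units it recovered 74, but among 100 shifted by 1 unit only 20. Only 200 of 19612 features were shifted there, against 5386 called here, so these rates may not hold for the mice. A gene that was not called is therefore not shown to be unchanged. Precision is limited by having 3 arrays per diet, and p-values measure the spread between these mice. Class medians do not move when dim genes are set at their bounds, since those genes stay below the median. Called genes are named, those with the 4 largest differences per direction and class with every mouse; some further genes are always given, a few of which are not reported here. The members, lists and classes were chosen with earlier results of these data known. Alternatives were normexp, quantile and median scaling, the value table, other filters, moderation, array weights, mouse or slide blocks, every probe, other thresholds and leaving out each mouse.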

Additional observations from a re-analysis of the deposited data

How the results depend on the processing

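Genes called higher, Slc7a6os included, numbered 19 with all mice, 30 with array weights, 10 with a slide block, 8 on slide 1 alone, 9 at an adjusted p under 0.01, and 11 to 17 on leaving out each mouse, fewest without restricted mouse 2. Genes called lower numbered 21, and 15 to 24 under every alternative run, 18 to 23 of them without each mouse. Of the 40 called genes 17 kept their call under every setting that tested them apart from the 2 other thresholds, left-out mice and a gene's other probes included, 4 higher (Slc2a2, Slc16a11, Slc22a4, Slco1a1) and 13 lower. No called gene changed direction except Slc7a5, which read -1.75 on slide 1 alone, -1.35 by its other probe, and -1.32 to 0.52 on leaving out each mouse, as another probe became the brightest. Among genes not called that are reported here, directions turned for Slc15a4 (-0.17) with a slide block and on slide 1 alone, as for Slc38a2 (0.17) and Slc6a6 (-0.54). Quantile normalization turned Slc3a2 (-0.16) and Slc6a6 (-0.20), normexp Slc6a6 (-0.027), array weights Slc3a2 (-0.13), and the other probe Slc16a10 (-0.41). Leaving out each mouse gave both signs for Slc38a2 (-0.65 to 0.042), Slc3a2 (-0.13 to 0.20) and Slc6a6 (-0.28 to 0.27). The cause was not tested. Normexp, whose offset of 50 is near the median signals of 27.5 to 52.0, kept 33 of the 40 calls and shrank dim genes, Slc2a6 to -2.60 and Slc5a11 to -0.89. The median feature differed by 0.07 to 0.26 over the settings. Array weights called 6 reported genes that the main fit did not, Slc16a1, Slc16a12, Slc6a9, Slc6a13 and Slco1a4 higher and Slc2a1 lower. With those weights 24.8% of all features were called higher and 17.9% lower. Nothing in the labels says whether mouse numbers pair the mice across the diets. Deviations of same-numbered mice correlated at 0.38, 0.00 and 0.48, and those of differently numbered mice at -0.50 to 0.12. Whether the numbers mark a pairing was not tested. With the number as a replicate block 39 of the 40 calls were kept, 19 genes were higher and 24 lower, and Slc3a1, Slc6a8 and Slc7a2 were called.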
